A study of Mus musculus with 2 samples.

Results

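The Polycomb complex genes described here are 10 mouse genes, Ezh2, Eed, Suz12, Jarid2, Mtf2, Rnf2, Ring1, Pcgf6, Cbx7 and Kdm2b, out of 21938 protein-coding genes on chromosomes 1 to 19, X and Y. They were chosen by name, and a gene was counted as bound by SRCAP in a replicate if a peak overlapped 1 of its promoters by at least 1 bp. A promoter reached from 1000 bp upstream to 500 bp downstream of any annotated transcription start site (TSS) of the gene. The peaks came from CUT&Tag, which directs a transposase to an antibody target in permeabilized cells. Both samples were SYAT cells, a line made from CGR8 mouse embryonic stem cells (mESCs). In these cells every copy of Srcap carries a 3′ tag that adds a degron responsive to auxin (AID) and YPet, a fluorescent protein, and a lentiviral vector supplies the plant receptor OsTir1. The line goes back to 1 homozygous tagged clone. SRCAP, the catalytic subunit of a remodeler that places the histone variant H2A.Z in nucleosomes, was mapped through its YPet tag with an anti-GFP antibody. Both replicates were in the control condition, cultured with auxinole to prevent basal loss of SRCAP, at 200 nM in the labels but at 200 µM in the methods, and moved to medium with serum and LIF before the experiment. They form 1 group of 2 replicates, so neither treatment nor an untagged background was compared, and the files hold positions of peaks but no expression with which to check the cell type. The study describes its replicates as cells cultured and treated independently.

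Polycomb proteins keep developmental genes silent in mESCs through a pair of enzyme complexes. Polycomb repressive complex 2 (PRC2) methylates lysine 27 of histone H3, and Polycomb repressive complex 1 (PRC1) places ubiquitin on lysine 119 of H2A. Many of their targets are CpG islands that carry H2A.Z. The values below concern the promoters of the genes that encode the complexes, not the sites that the complexes occupy.

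Of the 10 genes, 4 were bound in replicate 1, 7 in replicate 2 and 3 in both, while 15.7%, 30.4% and 12.0% of all protein-coding genes were. Ezh2, Suz12 and Rnf2 were bound in both replicates, Cbx7 in replicate 1 only, and Eed, Jarid2, Mtf2 and Kdm2b in replicate 2 only. Ring1 and Pcgf6 had no promoter peak in either list. When replicate 2 was limited to its 6158 peaks of highest score, the length of the replicate 1 list, it kept 4 genes and lost Jarid2, Mtf2 and Kdm2b, and the genes bound in both replicates remained Ezh2, Suz12 and Rnf2. At that length 19.2% of all protein-coding genes were bound in replicate 2 and 9.69% in both. The DNA at these promoters is shown first for Suz12 and Rnf2, whose replicate peaks overlapped each other, and for Ring1 and Pcgf6, which had none. All sequences are from the GRCm38 assembly, the same coordinates as mm10, and run 5′ to 3′ along the strand of the gene. Capitals mark matches on either strand to the motif letters given further below. The Suz12 stretch lay wholly in the replicate 2 peak and with 167 of its 200 bases in the replicate 1 peak, whereas 117 bases of the Rnf2 stretch lay in the replicate 2 peak and 0 in the replicate 1 peak.
Suz12, 200 bases upstream of the TSS, chr11:79992906-79993105, plus strand: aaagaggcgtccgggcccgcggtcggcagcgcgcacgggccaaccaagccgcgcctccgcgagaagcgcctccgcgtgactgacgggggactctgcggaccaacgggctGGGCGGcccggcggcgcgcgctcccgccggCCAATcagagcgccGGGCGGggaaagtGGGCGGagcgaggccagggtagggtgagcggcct
Rnf2, 200 bases upstream of the TSS, chr1:151500956-151501155, minus strand: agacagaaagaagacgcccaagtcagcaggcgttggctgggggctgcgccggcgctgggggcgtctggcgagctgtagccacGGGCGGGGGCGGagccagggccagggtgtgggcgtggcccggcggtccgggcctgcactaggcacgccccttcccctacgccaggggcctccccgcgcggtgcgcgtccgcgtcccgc
Ring1, 200 bases upstream of the TSS, chr17:34024681-34024880, minus strand: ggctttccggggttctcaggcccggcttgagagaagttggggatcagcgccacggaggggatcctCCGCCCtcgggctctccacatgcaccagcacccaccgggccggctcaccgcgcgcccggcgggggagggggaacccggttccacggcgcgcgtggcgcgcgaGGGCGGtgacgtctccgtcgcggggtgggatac
Pcgf6, 198 bases upstream of the TSS, chr19:47050907-47051104, minus strand: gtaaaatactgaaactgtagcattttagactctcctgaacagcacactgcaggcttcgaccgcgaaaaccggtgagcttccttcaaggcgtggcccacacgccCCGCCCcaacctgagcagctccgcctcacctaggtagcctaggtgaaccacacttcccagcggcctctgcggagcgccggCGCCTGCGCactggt

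These 4 stretches were GC-rich with and without a peak. GC content was 77.0% for Suz12, 76.5% for Rnf2, 74.0% for Ring1 and 60.6% for Pcgf6. The number of CpG dinucleotides was 32, 24, 26 and 14 in the same order.

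The next sequences come from peaks that were found in 1 replicate or at different places in the replicates. They show the separate Ezh2 peaks, the Eed peak, with the highest member score in replicate 2, and the peaks of Jarid2 and Cbx7, which lay away from the principal TSS.
Ezh2, replicate 1 peak, chr6:47595595-47595844, minus strand: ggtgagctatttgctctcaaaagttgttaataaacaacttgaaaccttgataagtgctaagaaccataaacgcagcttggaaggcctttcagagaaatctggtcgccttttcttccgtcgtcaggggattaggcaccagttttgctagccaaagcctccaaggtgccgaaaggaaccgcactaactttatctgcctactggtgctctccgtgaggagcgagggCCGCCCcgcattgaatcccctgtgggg
Ezh2, replicate 2 peak upstream of the gene, chr6:47595342-47595425, minus strand: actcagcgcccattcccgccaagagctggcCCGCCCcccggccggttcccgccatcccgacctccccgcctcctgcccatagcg
Eed, 200 bases of the replicate 2 peak upstream of the gene, chr7:89980984-89981183, minus strand: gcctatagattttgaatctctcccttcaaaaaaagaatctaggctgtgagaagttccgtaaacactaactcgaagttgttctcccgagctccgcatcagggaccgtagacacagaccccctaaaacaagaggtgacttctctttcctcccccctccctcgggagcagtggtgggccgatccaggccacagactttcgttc
Jarid2, 200 bases of the replicate 2 peak, chr13:44733840-44734039, plus strand: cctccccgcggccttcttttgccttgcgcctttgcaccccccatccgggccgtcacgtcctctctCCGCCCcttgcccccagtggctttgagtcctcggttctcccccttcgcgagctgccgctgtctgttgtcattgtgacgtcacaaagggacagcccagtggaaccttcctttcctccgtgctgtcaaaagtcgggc
Cbx7, 80 bases of the replicate 1 peak upstream of the gene, chr15:79971120-79971199, minus strand: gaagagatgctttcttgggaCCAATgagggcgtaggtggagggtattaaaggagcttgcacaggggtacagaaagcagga

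The Ezh2 replicate 1 peak had 4.0 CpG per 100 bases and a GC content of 50.4%. The part of the Ezh2 replicate 2 peak upstream of the gene had 10.7 CpG per 100 bases and a GC content of 75.0%. The Eed stretch had a GC content of 51.5% and 8 CpG, that of Jarid2 63.0% and 14, and that of Cbx7 51.2% and 1.

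**Figure D1:**
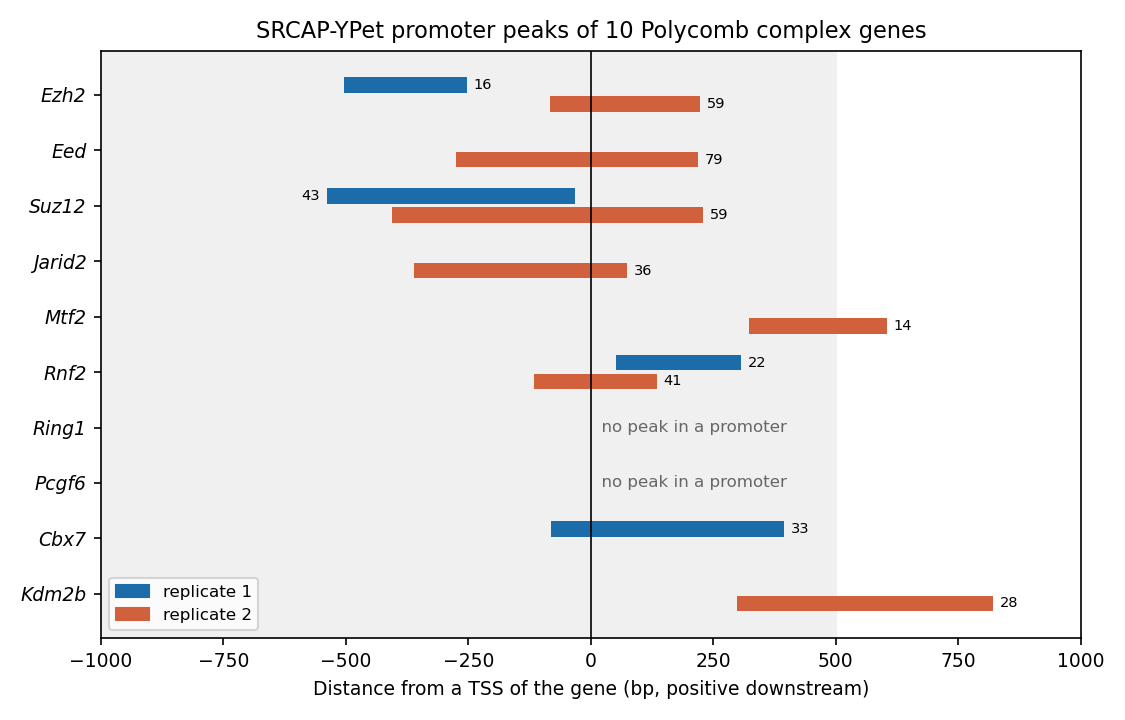
Position and width of each promoter peak of the 10 genes, in bp from a TSS of the gene (the one nearest to its replicate 2 peak, or for Cbx7 to its replicate 1 peak), with bars for peaks, numbers for their scores and a grey area for the promoter around that TSS. The Ezh2 bars of replicates 1 and 2 are 169 bp apart, the Suz12 bars share 372 bp and the Rnf2 bars share 83 bp.

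The core of PRC2 is formed by EZH2, the histone methyltransferase, EED, which binds the methylated product, and SUZ12, the scaffold. All 3 genes were bound in replicate 2, and Ezh2 and Suz12 were also bound in replicate 1. The score of a peak is that of the peak caller, and it was read as 10 times the −log10 of the q-value, with 13 as the lowest value in both lists. Scores depend on sequencing depth, which is unknown, so they were compared only within a list, as the percentile among all promoter peaks of that list.

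At Suz12 on chromosome 11, the replicate 1 peak spanned 79992567 to 79993072, a width of 506 bp with a score of 43. The replicate 2 peak spanned 79992701 to 79993334, a width of 634 bp with a score of 59. The gene starts at 79993106 on the plus strand, so the peak midpoints lay 287 bp and 89 bp upstream of the TSS. All 506 bp of the replicate 1 peak were outside the gene, and its edge stopped 34 bp short of the TSS. The replicate 2 peak ran across the TSS and covered 229 bp of exon, of which 214 bp were 5′ UTR and 15 bp coding sequence. The shared stretch was 372 bp, 73.5% of the replicate 1 peak and 58.7% of the replicate 2 peak. Suz12 was thus the member at which the replicates shared most bases, and its peaks were the widest member peaks in both lists, at the 81.7 and 84.9 percentile of width.

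At Ezh2 on chromosome 6, minus strand, the replicates marked different DNA. The replicate 1 peak spanned 47595595 to 47595844, a width of 250 bp with a score of 16. The replicate 2 peak spanned 47595120 to 47595425, a width of 306 bp with a score of 59. A gap of 169 bp separated them, so Ezh2 counted as bound in both replicates without any shared base. The replicate 2 midpoint lay 69 bp downstream of the nearest TSS at 47595341, and the replicate 1 midpoint 378 bp upstream of it. The principal TSS of Ezh2, which is that of the transcript annotated as the main coding isoform, is at 47595030, and the midpoints lay 242 bp and 689 bp upstream of it. The score of 16 was at the 6.30 percentile of replicate 1 promoter peaks, and that of 59 at the 71.4 percentile of replicate 2. Among all 2643 protein-coding genes bound in both replicates, 5.49% had peaks that did not overlap each other.

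Eed on chromosome 7, minus strand, had a peak in replicate 2 only, at 89980765 to 89981258. It was 494 bp wide, and its score of 79 was the highest among the members in that replicate, at the 84.9 percentile. The midpoint lay 28 bp upstream of the TSS at 89980983, with 275 bp outside the gene and 219 bp in the 5′ UTR. The same peak overlapped the promoter of E230029C05Rik, a noncoding gene on the opposite strand. In replicate 1 the nearest peak to any Eed TSS was 128 kb away. The gene with the highest member score in replicate 2 was therefore without a call in replicate 1, and the lists cannot tell low depth from lack of signal there.

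Among the accessory subunits of PRC2, JARID2 joins the form that contains AEBP2, and MTF2 is a Polycomb-like protein that binds unmethylated CpG DNA. Both genes were bound in replicate 2 only. The Jarid2 peak on chromosome 13 spanned 44733679 to 44734113, 435 bp wide with a score of 36. Its midpoint lay 144 bp upstream of the TSS of a noncoding transcript of Jarid2 at 44734040, and 3122 bp downstream of the principal TSS at 44730774. Of its bases, 361 were intronic and 74 were in a noncoding exon. No peak of either list touched the principal promoter of Jarid2, and in replicate 1 the nearest peak to any Jarid2 TSS was 549 kb away.

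The Mtf2 peak on chromosome 5 spanned 108066080 to 108066360, 281 bp wide, and lay entirely in an intron. The midpoint was 463 bp downstream of the nearest TSS and 478 bp downstream of the principal TSS at 108065742. The score of 14 was at the 2.18 percentile of replicate 2 promoter peaks, next to the lowest value a listed peak can have. Only 3.23% of the promoter peaks in that list had a score of 14 or less. In replicate 1 the nearest peak was 28.5 kb away.

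RNF2 and RING1, also known as RING1B and RING1A, are the alternative ubiquitin ligases of PRC1. They differed in these lists, with Rnf2 bound in both replicates and Ring1 in neither. The Rnf2 peak on chromosome 1 spanned 151500649 to 151500904 in replicate 1, 256 bp wide with a score of 22. In replicate 2 it spanned 151500822 to 151501072, 251 bp wide with a score of 41. The replicate 2 midpoint was 8 bp downstream of the principal TSS at 151500955, and that of replicate 1 was 179 bp downstream of the same TSS and 18 bp from an alternative TSS at 151500794. The peaks shared 83 bp, 32.4% of the replicate 1 peak and 33.1% of the replicate 2 peak. They were among the narrow peaks of their lists, at the 12.2 and 6.01 percentile of width. Their GC content was 70.3% and 74.9%.

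Ring1 on chromosome 17, minus strand, starts at 34024680. The nearest peaks to a Ring1 TSS were 72.5 kb away in replicate 1 and 55.3 kb away in replicate 2, so no peak lay just outside the promoter. Annotated starts of Gm26940, Mir219a-1 and Mir219c lie 332 to 412 bp from a Ring1 TSS, and these had no promoter peak at this place either.

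The other PRC1 members determine which form of the complex is made. CBX7 reads methylated H3 in canonical PRC1, PCGF6 belongs to a variant PRC1, and KDM2B binds unmethylated CpG DNA and recruits another variant PRC1. Cbx7 was the only member bound in replicate 1 alone. The peak on chromosome 15 spanned 79970724 to 79971199, 476 bp wide with a score of 33. It contained the TSS of a coding transcript at 79971118, with the midpoint 157 bp downstream. This start is the far upstream one of the gene, since the principal TSS is at 79932639, 38322 bp downstream of the peak midpoint. In replicate 2 the closest peak to a Cbx7 TSS was inside the gene, 13.4 kb downstream of the nearest TSS, with a score of 26 and a width of 484 bp. It covered exon sequence only, 237 bp of it coding.

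Kdm2b on chromosome 5, minus strand, was bound in replicate 2 only, at 122881413 to 122881934, 522 bp wide with a score of 28. The nearest replicate 1 peak was 31.1 kb from a Kdm2b TSS. All 522 bp lay in the promoter of a retained-intron transcript with its TSS at 122881085, 588 bp downstream of the peak midpoint. The nearest TSS, at 122882233, belongs to another retained-intron transcript, and 202 bp of the peak lay in its promoter. The midpoint was 560 bp downstream of that TSS and 107426 bp downstream of the principal TSS at 122989099, near the 3′ end of the gene. It covered 114 bp of coding exon and 408 bp of intron. No peak touched the principal promoter of Kdm2b, which also holds the start of the antisense gene A930024E05Rik.

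Pcgf6 on chromosome 19 had no promoter peak. In replicate 2 a peak of 296 bp lay in an intron of the gene, at 47047382 to 47047677, with its midpoint 1958 bp downstream of the nearest TSS and 3.38 kb downstream of the principal TSS. Its score was 14. In replicate 1 the nearest peak was 127 kb away.

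**Figure D2:**
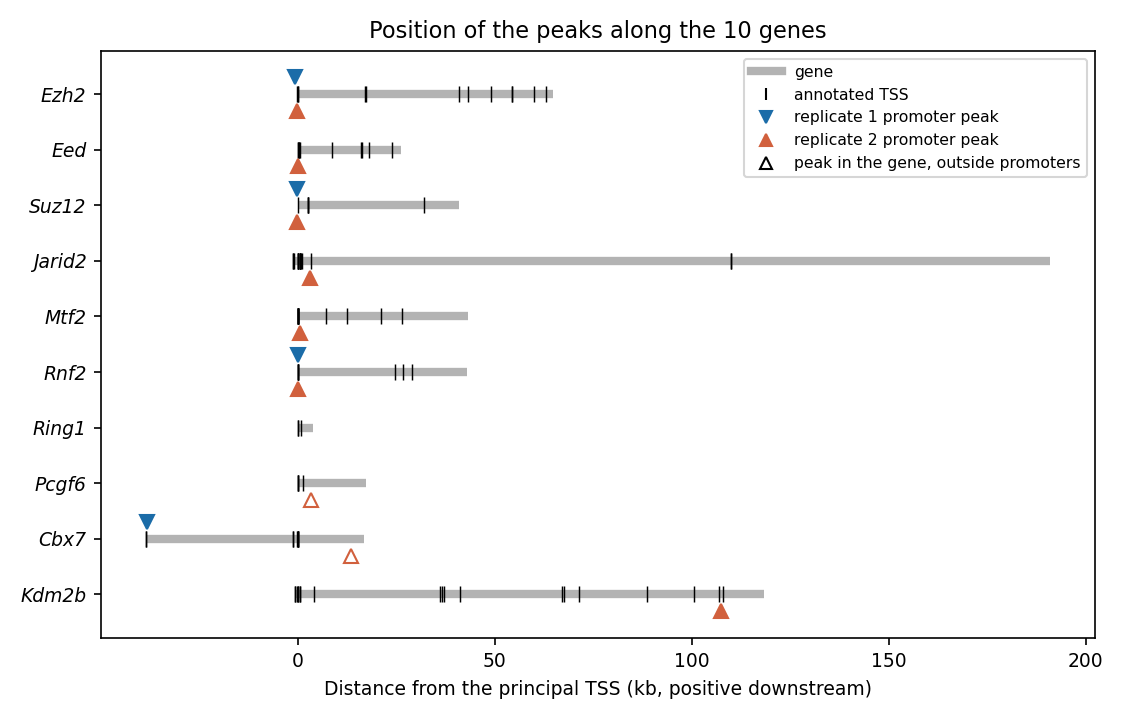
Midpoints of peaks along the 10 genes, in kb from the principal TSS, with grey lines for the genes, ticks for annotated TSSs, filled triangles for promoter peaks (pointing down for replicate 1 and up for replicate 2) and open triangles for peaks inside the gene but outside promoters. Peaks of Ezh2, Eed, Suz12, Mtf2 and Rnf2 enter the promoter of the principal TSS, and those of Jarid2, Cbx7 and Kdm2b enter promoters of other starts only.

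The member peaks fell into a group in the promoter of the principal TSS and a group in promoters of other starts only. When only the principal TSS was used, Ezh2, Suz12 and Rnf2 were bound in replicate 1, and Ezh2, Eed, Suz12, Mtf2 and Rnf2 in replicate 2. By the same rule 13.8% and 26.9% of all protein-coding genes were bound. The 4 PRC2 genes Ezh2, Eed, Suz12 and Mtf2 and the PRC1 ligase gene Rnf2 made up the first group. The principal TSS itself lay inside 3 peaks, those of Eed, Suz12 and Rnf2 in replicate 2, whereas the Ezh2 peaks ended 565 and 90 bp from it and the Mtf2 peak 338 bp from it. The 3 other bound genes were Jarid2, Cbx7 and Kdm2b. Each of these was found in 1 replicate only, as were Eed and Mtf2. Jarid2 and Kdm2b were no longer bound when promoters of protein-coding transcripts alone were used, because their peaks lay at noncoding and retained-intron transcripts.

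By score and width, the member peaks lay inside the range of other promoter peaks. In replicate 1 the 4 scores ranged from 16 to 43 with a median of 27.5, against a median of 35 over 3348 promoter peaks. In replicate 2 the 7 scores ranged from 14 to 79 with a median of 41, against 42 over 6719 promoter peaks. The median score percentile of the members was 30.7 in replicate 1 and 48.4 in replicate 2. The narrowest and widest member peaks were 250 and 506 bp in replicate 1, and 251 and 634 bp in replicate 2. Median widths of the members were 366 and 435 bp, against 352 and 404 bp over all promoter peaks. A TSS of the gene lay inside 2 of 4 member peaks in replicate 1 and 5 of 7 in replicate 2, while a TSS of any gene lay inside 63.8% and 67.7% of all promoter peaks. GC content of the member peaks lay between 50.4% and 70.3% in replicate 1, and between 57.3% and 74.9% in replicate 2. Over all promoter peaks its medians were 63.5% and 62.6%.

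**Figure D3:**
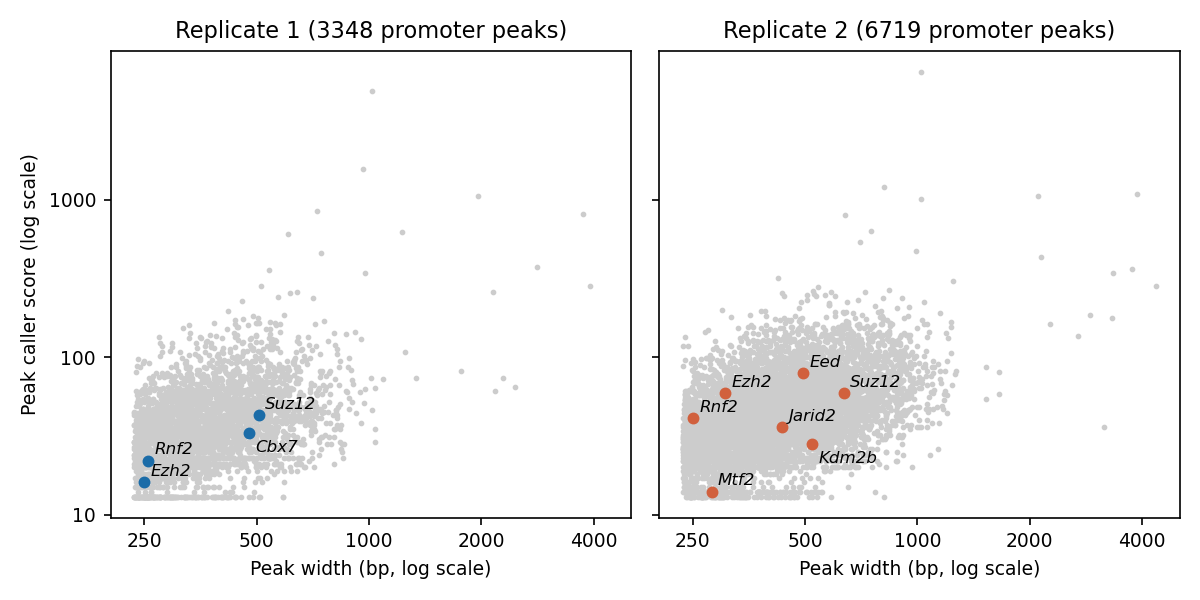
Score against width, both on log scales, of all promoter peaks (grey) and of the member peaks (coloured, with gene names), for replicate 1 on the left and replicate 2 on the right. The member scores, 16 to 43 and 14 to 79, lie within the range of promoter peaks in both lists, with Ezh2 in replicate 1 (6.30 percentile) and Mtf2 in replicate 2 (2.18 percentile) near the bottom.

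To place the member counts, the same rule was applied to every protein-coding gene. In replicate 1, 40.0% of the members and 15.7% of all protein-coding genes were bound. In replicate 2 the shares were 70.0% and 30.4%, and for both replicates 30.0% and 12.0%. With 10 genes, each gene weighs 10 percentage points, and this difference was not tested. With a score of at least 50, 0 members were bound in replicate 1 and in both replicates, against 4.21% and 2.99% of all genes. Since each member weighs 10 percentage points, a count of 0 at such low shares cannot show a change of order. In replicate 2 the peaks of 3 members remained, against 13.1% of all genes. With a TSS required inside the peak, 2, 5 and 1 members were bound in replicate 1, replicate 2 and both, against 9.73%, 20.6% and 6.97% of all genes.

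The members differed from most genes in features that move with the share of bound genes. All 10 had a CpG-rich principal promoter, with a GC content of at least 50% and an observed over expected CpG ratio of at least 0.6 in the 300 bp from 250 bp before to 50 bp after the TSS, against 43.9% of all 21846 protein-coding genes with such a window. The median GC content of these windows was 64.3% for the members and 55.7% for all genes, and the median CpG ratio 0.94 and 0.56. The members had a median of 9.5 TSSs, and all 10 had 3 or more, while all protein-coding genes had a median of 3 and 59.5% had 3 or more. More TSSs give a gene more promoter sequence in which a peak can fall.

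Among genes with a CpG-rich promoter, 25.4% were bound in replicate 1, 48.2% in replicate 2 and 20.2% in both. Among genes with 3 or more TSSs, the shares were 20.9%, 40.3% and 16.4%. Genes with both features gave 26.8%, 50.8% and 21.5%, so the 40.0%, 70.0% and 30.0% of the members were closer to these genes than to all genes. The part of these features in the member counts was not tested. The number of TSSs per member ran from 3 for Ring1, 4 for Pcgf6 and 5 for Suz12 to 19 for Kdm2b.

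**Figure D4:**
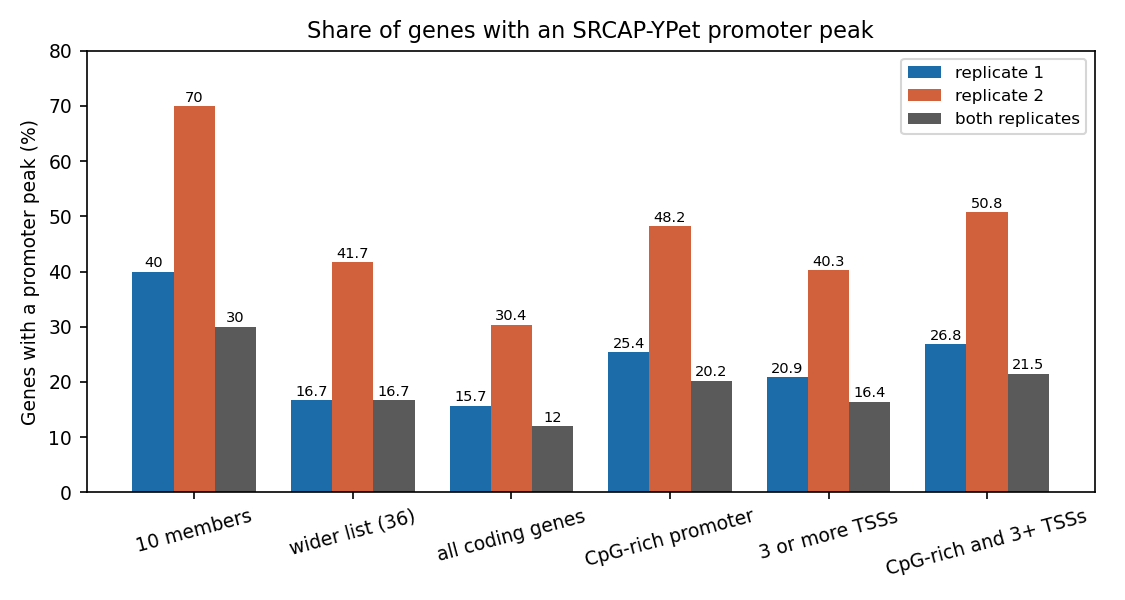
Percent of genes with a promoter peak in replicate 1, replicate 2 and both, for the 10 members, the 36 genes of the wider Polycomb list, all protein-coding genes, and protein-coding genes with a CpG-rich principal promoter, with 3 or more TSSs, or with both. Members reach 40.0%, 70.0% and 30.0%, and genes with both features 26.8%, 50.8% and 21.5%.

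The share of genes found again in the other replicate was read for members and for all genes. Of the 4 members bound in replicate 1, 3 were bound in replicate 2, against 76.7% of the 3445 protein-coding genes bound in replicate 1. Of the 7 members bound in replicate 2, 3 were bound in replicate 1, against 39.7% of 6660 genes.

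The principal promoters of the members were searched on both strands for short motifs of factors with known promoter sites. CCAAT, the NFY box, was present in 5 members, Ezh2, Eed, Suz12, Jarid2 and Cbx7, and in 38.6% of all such windows. GGGCGG, bound by SP and KLF factors, was present in 8 members, all but Ezh2 and Eed, in 45.3% of all windows and in 76.8% of CpG-rich ones. GCGCANGCG, a core of the NRF1 site, was present in Ezh2, Pcgf6 and Cbx7, in 8.57% of all windows and in 16.9% of CpG-rich ones. AAGATGGC, a YY1 core, and CTCGCGAG, a ZBTB33 core, were in 0 members and in 3.05% and 1.22% of all windows. A match is only a match of letters, and the peaks of Jarid2, Mtf2, Cbx7 and Kdm2b and the replicate 1 peaks of Ezh2 and Rnf2 shared 0 bp with this window.

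The other genes of the Polycomb system were taken from a wider list of 36 genes. Of these, 6 were bound in replicate 1, 15 in replicate 2 and 6 in both, or 16.7%, 41.7% and 16.7%. All protein-coding genes gave 15.7%, 30.4% and 12.0%, and those with both features named above 26.8%, 50.8% and 21.5%, so the list lay between these backgrounds. Of the 36 genes, 30 had a CpG-rich promoter. All 6 genes of the list bound in replicate 1 were bound in replicate 2, against 76.7% of all protein-coding genes bound in replicate 1. They were Rbbp4, a histone chaperone shared by PRC2 and other complexes, Phf19, a Polycomb-like PRC2 subunit, Cbx8 and Phc3 of canonical PRC1, Mga, the DNA-binding subunit of the PCGF6 complex, and Kdm6a, an H3K27 demethylase.

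Rbbp4 had the widest peaks of the list, 895 and 963 bp, which shared 895 bp and also covered the promoter of Zbtb8os. Their scores were 83 and 60. Phf19 had the highest score of the list in replicate 1, 129, and a score of 65 in replicate 2. Its peak midpoints lay 8782 and 8869 bp downstream of its principal TSS. They were 287 and 200 bp upstream of the internal start of a noncoding transcript. Mga had scores of 36 and 82 with 421 shared bp, and Kdm6a 30 and 90 with 464 shared bp. The Phc3 peaks, with scores of 32 and 20, shared 282 bp. At Cbx8 the peaks had scores of 25 and 22 and shared 13 bp.

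By complex, 3 of the 8 further PRC2 genes were bound in at least 1 replicate, 3 of 10 canonical PRC1 genes, 7 of 13 variant PRC1 genes and 2 of 5 opposing enzymes. Of all protein-coding genes, 34.0% were bound in at least 1 replicate. All but 1 of the 7 variant PRC1 genes were bound in replicate 2 only, and of all protein-coding genes bound in replicate 2, 39.7% were also bound in replicate 1. Members and list together gave 8 of 13 PRC2 genes and 12 of 28 PRC1 genes bound in replicate 2, 61.5% and 42.9%. In that replicate 30.4% of all protein-coding genes were bound, and 50.8% of those with a CpG-rich promoter and 3 or more TSSs. Among the members alone, replicate 2 had peaks at all 5 PRC2 genes and at 2 of the 5 PRC1 genes. Replicate 1 had peaks at 2 of the 5 PRC2 genes and at 2 of the 5 PRC1 genes. For members and list together, its shares were 30.8% of PRC2 genes and 17.9% of PRC1 genes. At the length of the replicate 1 list, replicate 2 kept Ezh2, Eed and Suz12 of PRC2 and Rnf2 of PRC1. Whether PRC2 and PRC1 genes differ was not tested.

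**Figure D5:**
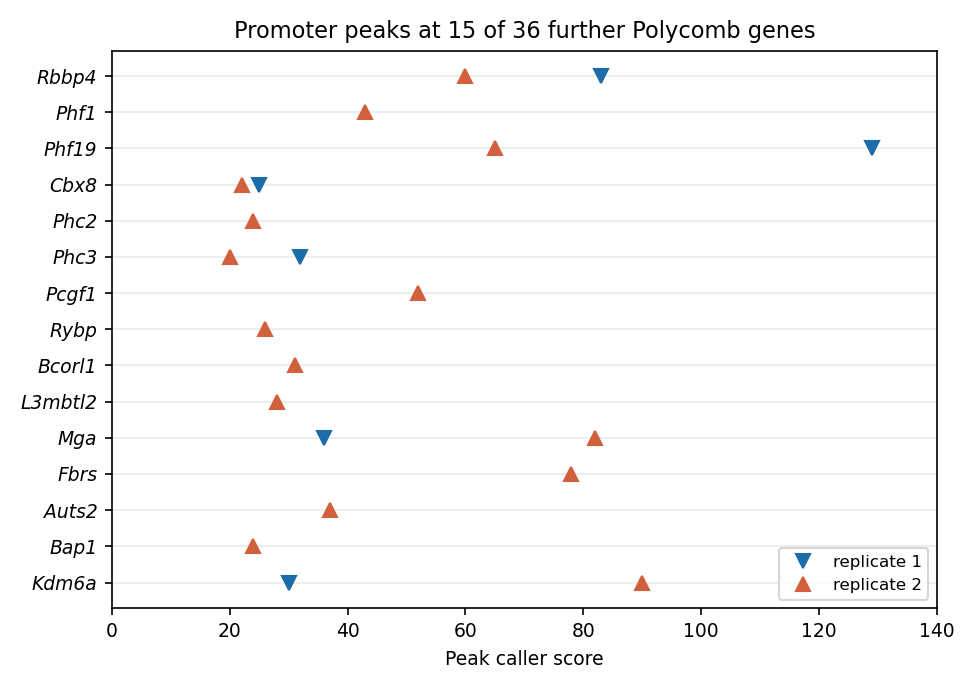
Peak caller score of each promoter peak at the 15 genes of the wider Polycomb list that had one, with triangles pointing down for replicate 1 and up for replicate 2. Phf19 has the highest score in replicate 1, 129, and Kdm6a the highest in replicate 2, 90. A peak in replicate 2 only is seen for 9 genes.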

How the data were processed

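Per the labels, 200000 SYAT cells were mixed with 10000 Drosophila nuclei as spike-in and transposed for 1 h. The authors deposited 1 peak list per replicate, called in each sample with MACS2, with positions and a whole-number score per peak. Submitters' notes name STAR, Picard and MACS2 and the builds mm10 and dm6. The methods describe unique alignments, blacklist exclusion, spike-in downsampling and removal of duplicates and of mitochondrial and unplaced reads for ChIP-seq and CUT&Tag together. Each list nevertheless held 6 mitochondrial peaks, so which of these steps, or an input control, applied to it is not known. The lists held 6158 and 12958 peaks, with no read numbers, so depth is unknown and a gene without a peak may lie under the threshold.

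Here, peaks were overlapped with promoters from GENCODE mouse release 21 on GRCm38, with sequence from the NCBI copy of that assembly. The principal TSS was the most upstream start among principal coding transcripts. The 13 mitochondrial coding genes were left out. A score percentile counts lower peaks and 50% of ties. No test was run, since there is 1 group. All 500 promoters planted in a run over 21951 genes were found. All 10 members and, of the wider list, the genes bound in both replicates were to be named. Genes and lists were chosen with earlier results of these data known. Python 3.11.15, pandas 2.3.3, numpy 2.4.6, scipy 1.17.1, pysam 0.24.0 and matplotlib 3.10.9 were used.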

Additional observations from a re-analysis of the deposited data

How the results depend on the processing

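Values are given for replicate 1, replicate 2 and both replicates. With a TSS required inside the peak, members fell from 4 to 2 in replicate 1 (Rnf2 and Cbx7 left) and from 3 to 1 in both (Rnf2), while all protein-coding genes gave 9.73%, 20.6% and 6.97%. A score of at least 50 left 0, 3 and 0 members (Ezh2, Eed and Suz12 in replicate 2), 2, 6 and 2 genes of the wider list, and 4.21%, 13.1% and 2.99% of all genes. With both lists at 6158 peaks, replicate 2 kept 4 members, 8 genes of the wider list and 19.2% of all genes. In both replicates 3 members, 4 genes of the wider list and 9.69% of all genes were then bound. Smaller shifts of the share of all genes came with protein-coding transcripts only (15.1% and 29.3% in the replicates), with 250 bp on either side of the TSS (14.4%, 28.2% and 11.0%), with the midpoint in the promoter (29.5% in replicate 2) and with 2000 bp upstream (31.1% in replicate 2). The principal TSS only, chosen after seeing the data, gave 13.8%, 26.9% and 10.6%, and the stratified backgrounds were also chosen then. Ignoring replicate 1 or replicate 2 in turn, the count of members bound in both ranged from 4 to 7, that of the wider list from 6 to 15, and the share of all genes from 15.7% to 30.4%. The count without replicate 1 is that of replicate 2 alone. With protein-coding transcripts only, the Jarid2 midpoint was 2609 bp downstream of the nearest TSS in place of 144 bp upstream, that of Kdm2b 6907 in place of 560 bp downstream, and that of Mtf2 476 in place of 463 bp downstream. Under the other alternatives, member counts stayed within 1.5-fold, and merging peaks changed no member width. No paired analysis was possible because both samples belong to the same group.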
